A study of Mus musculus with 8 samples.

Results

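Chromatin accessibility after loss of Ppara was compared in mouse livers that already lacked Cpt2. ATAC-seq, in which the Tn5 transposase places sequencing adapters into open DNA, was used on flash-frozen liver of male C57BL/6 mice aged 9 weeks and fasted for 24 h. The comparison used 4 of the 8 libraries of the series, 2 from Cpt2 knockout livers (genotype Cpt2 L-/-) and 2 from double knockout livers (genotype Cpt2 L-/- ; Ppara -/-). All 4 livers therefore shared the Cpt2 deletion and the fast, and differed by the Ppara alleles. The remaining 4 libraries, 2 wild type and 2 Ppara knockout (Ppara -/-), were fasted in the same way and served for comparison without Cpt2 loss. The Cre driver of the Cpt2 deletion, the deleted part of Ppara, and whether the libraries of a group came from separate animals are not given in the sources used here, so p-values measure only the spread between these libraries.

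Each library came with its own list of peaks, and the 49587 consensus regions of the series were taken from the authors' table. An overlap of 1 bp or more with a library's peak was enough for a region to be called there. Regions called in both Cpt2 knockout libraries and in neither double knockout library are termed lost (10106 regions), and the reverse are termed gained (296 regions). Of the 45301 regions called in at least 1 of the 4 libraries, lost regions made up 22.3% and gained regions 0.653%. A further 14656 regions were called in all 4 libraries and are termed shared. Next to the lost class stood 5928 regions called in both Cpt2 knockouts and 1 double knockout, and 10949 called in 1 Cpt2 knockout alone. Next to the gained class stood 480 regions called in both double knockouts and 1 Cpt2 knockout, and 1779 called in 1 double knockout alone. The last 1107 regions were called in 1 library of each group. With 2 libraries against 2 no exact test can reach an adjusted or unadjusted p under 0.05, so lost and gained regions are described without a test.

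PPARα, the protein made from Ppara, is a nuclear receptor activated by fatty acids and their derivatives. It binds DNA together with RXR at a direct repeat of AGGTCA with a spacer of 1 base, and in the fasted liver it is known for inducing genes of fatty acid uptake, mitochondrial and peroxisomal oxidation, omega-hydroxylation and ketone body synthesis. Cpt2 encodes carnitine palmitoyltransferase 2, which re-forms long-chain acyl-CoA inside mitochondria, so that liver without it cannot oxidise long-chain fatty acids there.

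Promoter sequences of 4 genes whose promoter lay in a lost region are shown first, because they bear on the motif that PPARα reads. They are the 250 bases before the start of the gene, from RefSeq on GRCm38.p6, printed 5′ to 3′ on the strand of the gene. Capitals mark 2 copies of AGGTCA set 1 base apart, on either strand, with at most 2 mismatches over the 12 compared bases. Fabp1 and Nr1h4 were the only 2 of 38 members of the gene lists used below, among those with a lost region at a promoter, whose promoter held such a match. Acaa1b and Acot1 had the strongest lost promoter regions of the list members. The stretches are chr6:71199629-71199878 for Fabp1 (plus strand), chr10:89506659-89506908 for Nr1h4 (minus strand), chr9:119157094-119157343 for Acaa1b (minus strand) and chr12:84009252-84009501 for Acot1 (plus strand).
Fabp1: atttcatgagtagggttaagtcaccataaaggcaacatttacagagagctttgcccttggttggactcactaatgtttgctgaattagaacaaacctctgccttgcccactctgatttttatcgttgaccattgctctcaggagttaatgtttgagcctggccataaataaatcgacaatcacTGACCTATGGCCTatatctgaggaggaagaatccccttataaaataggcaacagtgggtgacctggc
Nr1h4: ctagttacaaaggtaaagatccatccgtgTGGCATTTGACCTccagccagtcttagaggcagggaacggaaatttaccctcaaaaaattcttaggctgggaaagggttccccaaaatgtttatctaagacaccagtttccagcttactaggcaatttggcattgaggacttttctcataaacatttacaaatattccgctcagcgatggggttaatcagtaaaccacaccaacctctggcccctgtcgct
Acaa1b: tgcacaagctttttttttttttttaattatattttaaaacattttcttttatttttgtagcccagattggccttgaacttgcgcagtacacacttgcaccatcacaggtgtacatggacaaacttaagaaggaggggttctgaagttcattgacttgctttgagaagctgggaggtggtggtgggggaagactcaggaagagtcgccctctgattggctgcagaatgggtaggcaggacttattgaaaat
Acot1: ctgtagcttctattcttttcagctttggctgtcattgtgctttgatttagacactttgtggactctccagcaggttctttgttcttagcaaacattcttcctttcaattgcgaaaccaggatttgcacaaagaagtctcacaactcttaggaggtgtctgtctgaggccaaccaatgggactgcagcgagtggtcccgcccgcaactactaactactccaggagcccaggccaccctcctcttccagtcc
The Fabp1 match, on the strand opposite to the gene, had 1 mismatch and ran from -67 to -55 relative to the start. The Nr1h4 match, likewise on the opposite strand, had 2 mismatches and ran from -221 to -209. Acaa1b and Acot1 held no such letters within the bases shown.

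The lists themselves differed in length and in signal, which touches every count of lost and gained regions. The Cpt2 knockout lists held 39296 and 35908 peaks and covered 16.3 and 15.7 Mb, whereas the double knockout lists held 22715 and 18132 peaks and covered 8.79 and 6.62 Mb. The number of tags stacked at a peak's summit was solved from the deposited fold and p-value. The lowest background was 4.097 tags in all 8 libraries, and the smallest pileup called at that background was 18 or 19 tags in each. Over shared regions the median summit pileup was 113 and 100 tags in the Cpt2 knockouts, against 55 and 45 tags in the double knockouts. The groups did not overlap in this median, and 97.2% of 14619 shared regions had a lower mean log2 pileup in double knockout, with a median ratio of 0.481. A number inside the authors' peak names was 446 and 4717 in the Cpt2 knockouts but 6832 and 6831 in the double knockouts, and 6834 and 6833 in the Ppara knockouts against 441 and 443 in wild type. Its meaning is not given in the sources used here, and if it marks how or when libraries were processed, that cannot be told apart from the Ppara genotype.

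For this reason each count was also made with lists of equal number, keeping the 18132 strongest peaks of each of the 4 libraries. Then 1485 regions were lost (5.73% of 25934) and 1295 were gained (4.99%), so the excess of lost over gained regions nearly went away. Both counts included 1108 lost and 202 gained regions. These 2 smaller classes are reported beside the full ones. Equal-number lists compare order within a library, and cannot show a change that all regions share.

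Lost regions were mostly weak peaks. In each library, peaks were ordered by their deposited −log10 p and given a percentile, with 100 the strongest. The median lost region stood at percentile 33.6 of the Cpt2 knockout lists (interquartile range 21.4 to 47.0), with a median summit pileup of 48 tags and a width of 370 bp. Only 9 of the 10106 lost regions were at or above the 90th percentile, and 2063 were at or above the 50th. Gained regions stood at percentile 33.4 of the double knockout lists, with a median of 34 tags, and 2 of 296 were at or above the 90th. Shared regions stood at percentile 78.0 in the Cpt2 knockout lists, with a median of 107 tags and a width of 586 bp.

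**Figure D1:**
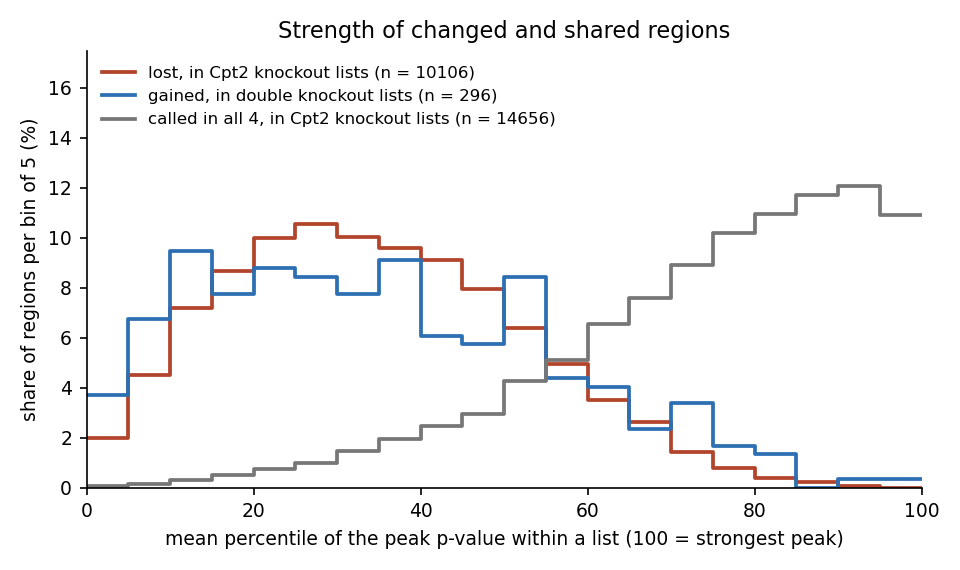
Strength of regions. The x axis is the mean percentile of the deposited −log10 p within the lists of the group that calls the region, and the y axis is the share of regions per bin of 5 percentiles. Lost (10106) and gained (296) regions centre near percentile 33, and regions called in all 4 libraries (14656) centre at 78.0.

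Most lost and gained regions lay away from promoters. A promoter window (250 bases before to 50 after a RefSeq start) was touched by 10.4% of lost, 1.69% of gained and 37.2% of shared regions, against 18.8% of all regions called in at least 1 library. Inside genes but over 1 kb from either end lay 44.1% of lost, 47.0% of gained and 28.4% of shared regions. Outside genes by over 1 kb lay 36.1% of lost and 43.9% of gained regions, at median distances of 18279 and 30887 bp. The share of regions lost ran from 20.66% to 24.96% over the autosomes, and was 25.4% on the X chromosome.

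More of the lost regions were called in wild type than in Ppara knockout liver, in libraries that the definition of lost did not use. Lost regions were called at 55.2% and 81.2% in the 2 wild type libraries, and at 17.3% and 13.5% in the 2 Ppara knockout libraries. These groups did not overlap. The order was the same over all 49587 consensus regions. Of these, 28192 and 35581 were called in the wild type libraries, and 19749 and 17648 in the Ppara knockouts. For the 1108 regions that equal-number lists lost as well, calls came to 90.1% and 99.3% in wild type and 34.3% and 22.2% in Ppara knockout. The lists of the Ppara knockouts (20340 and 18283 peaks) were also shorter than those of wild type (28733 and 36141), and how far this sets the shares was not tested.

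**Figure D2:**
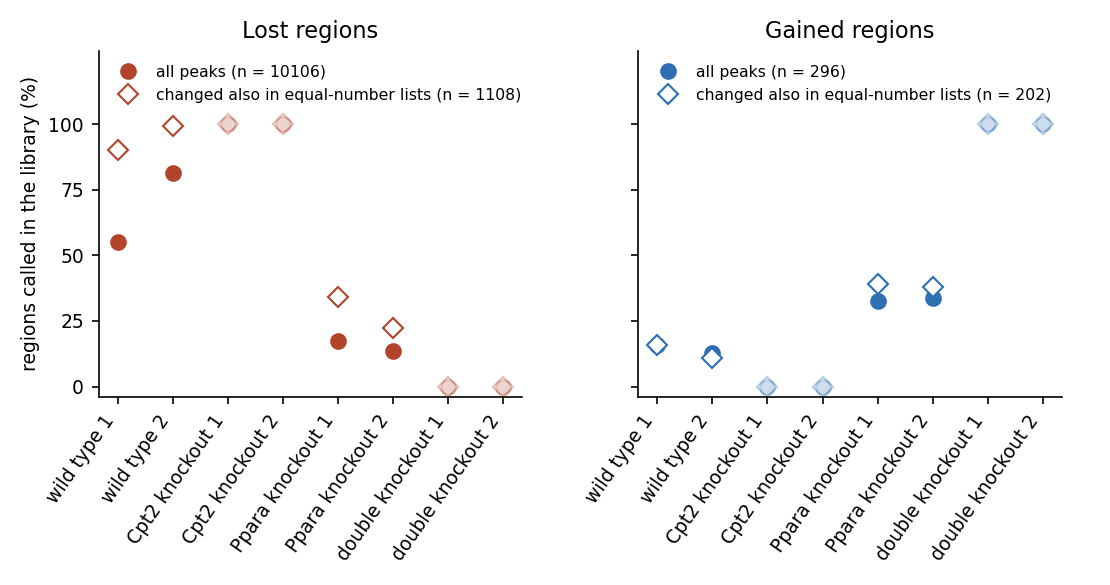
Calls of lost and gained regions in each of the 8 libraries, as percent of regions; circles are regions changed with all peaks and diamonds those changed also in equal-number lists. Pale symbols are the libraries that define the classes; wild type libraries called 55.2% and 81.2% of lost regions, and Ppara knockouts 17.3% and 13.5%.

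The comparison of Ppara knockout with wild type, which shares no library with the comparison on the Cpt2-null background, gave 6740 lost and 228 gained regions by the same rule. Lost in both comparisons were 3384 regions, 33.5% of those lost on the Cpt2-null background and 50.2% of those lost with Cpt2 intact. Of the 228 regions gained with Cpt2 intact, 6 (2.63%) were lost on the Cpt2-null background. Gained in both were 34 regions, 11.5% and 14.9% of the 2 gained classes. In equal-number lists 402 regions were lost in both (27.1% and 23.6%) and 254 were gained in both (19.6% and 21.5%). There the lost classes held 1485 and 1707 regions and the gained classes 1295 and 1179. For comparison, 22.3% of all regions were lost and 0.653% gained on the Cpt2-null background, and 5.73% and 4.99% in equal-number lists. With all peaks, the Ppara-null lists were the shorter ones in both comparisons, and how far this sets the overlap was not tested.

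A smaller set of lost regions was called in the Cpt2 knockout alone. Of the lost regions, 1333 (13.2%) were called in no wild type, Ppara knockout or double knockout library. They were weak, with a median percentile of 18.6 and a highest of 67.2, and 3 of them were lost in equal-number lists too. Plin2, which coats lipid droplets, had such a region 1561 bp from the gene (chr4:86671778-86672098), with 78 and 87 tags in the Cpt2 knockouts. By percentile it was not among the strongest of these regions, and no region of Plin2 was lost in equal-number lists. Such regions were 2.94% of all 45301 regions called in at least 1 of the 4 libraries, and 0% to 8.82% of the regions of the 14 gene lists described below. Omega-hydroxylation had 3 of 34, lipid droplet and lipolysis genes 6 of 91 (6.59%), acyl-CoA and uptake genes 6 of 106 (5.66%), and stress and immediate early genes 9 of 164 (5.49%). Ketone body and acute phase genes had 0 of 58 and 0 of 80. The lipid droplet genes concerned were Abhd5, Abhd6, Fitm2, Hilpda, Plin2 and Plin3, and the stress genes Atf3, Fos, Klf10, Klf6 and Myc. These genes were singled out after their values were seen.

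The deleted gene Ppara itself had 22 regions nearest to it or inside it, of which 7 were lost, 8 were shared and none was gained. All 7 were also lost in Ppara knockout against wild type. The strongest lay inside the gene (chr15:85774288-85774815), with 226 and 205 summit tags in the Cpt2 knockouts, at percentiles 90.5 and 91.2, and no peak in either double knockout. Whether it lies in the deleted stretch cannot be told from the sources used here. The Ppara promoter region (chr15:85734711-85736214) was called in all 8 libraries, with 203 and 163 tags in the Cpt2 knockouts and 82 and 71 in the double knockouts. Cpt2, deleted in both groups, had a promoter region (chr4:107923217-107923773) called in all 8 libraries, with 93 and 79 against 29 and 32 tags. A second region inside Cpt2 (chr4:107921928-107922335) was lost, with 134 and 96 tags in the Cpt2 knockouts, 74 and 119 tags in wild type, and no peak in the Ppara knockouts or double knockouts.

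The 10 strongest lost regions were called in both wild type libraries and in neither Ppara knockout. The first overlapped Ccdc33 and Stra6, the latter a receptor for retinol-binding protein (chr9:58105593-58106179), at 183 and 167 tags and percentiles 94.6 and 96.6. The second lay 15994 bp from F3, which encodes tissue factor, the trigger of coagulation (chr3:121707099-121707543, 121 and 159 tags). A distal region 311826 bp from Myc, a growth-promoting transcription factor, had 120 and 159 tags (chr15:62302187-62302751). The others lay nearest to Slc5a7, Tmem260, Olfr1160, Ppara, Elmod3, Ints14 and Cbfa2t3. Assignment to the nearest protein-coding gene, used throughout, does not show which gene a distal region serves.

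The 10 strongest gained regions were less uniform in the other genotypes. A region 125045 bp from 4933412E24Rik (chr15:60141663-60142122) had 87 and 112 tags in the double knockouts, at percentiles 95.8 and 98.9. It was called in both Ppara knockouts and in no wild type or Cpt2 knockout library. Another 8 lay nearest to Ttc21b, Maea, 4930583I09Rik, Mfng, Tbc1d32, Sh3bgrl2, Supt5 and Trim50, each called in at least 1 Ppara knockout. Of these 8, those at Ttc21b, 4930583I09Rik, Supt5 and Trim50 were also called in 1 wild type library. The whole gained class differed from its strongest members. Of all 296 gained regions, 32.4% and 33.8% were called in the 2 Ppara knockouts, and 15.9% and 12.8% in the 2 wild type libraries. No wild type or Ppara knockout library called 123 of them (41.6%). Calls over all regions are given above.

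Genes with the most lost regions also had many regions in all. Lpp, a focal adhesion scaffold, had 17 lost of 45 regions, and Arid1b, a subunit of the BAF chromatin remodelling complex, had 14 of 40. Myc had 13 of 39, Nfia, a nuclear factor I transcription factor, 13 of 38, and Pik3r1, the regulatory subunit of PI3-kinase, 13 of 39. Rreb1, Tns1 and Rbpms had 12 each. Counted anew in equal-number lists, lost regions numbered 4 for Nfia, 3 for Myc, 2 each for Lpp and Tns1, and 0 for Arid1b, Pik3r1 and Rreb1. No gene had more than 2 gained regions. Hnf4g, Gpc6, Man2a1, Mbnl1, Sox5, Mn1, 9530057J20Rik and LOC665918 had 2 each.

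Fatty acid omega-hydroxylation had the largest share of lost regions among the 14 gene lists. These lists were chosen with earlier results of these data known, and their shares are read against 22.3% of all regions when every peak is used and 5.73% in equal-number lists. Of 34 regions nearest to the 11 members, which encode Cyp4 enzymes that oxidise the terminal carbon of fatty acids and an aldehyde dehydrogenase, 18 (52.9%) were lost and none was gained, and in equal-number lists 4 of 19 (21.1%) were lost. All 4 regions of Cyp4a10, 4 of 5 of Cyp4a31, and 3 of 5 each of Cyp4a14 and Cyp4a32 were lost. The Cyp4a genes are near-identical neighbours on chromosome 4, where reads that fit several copies can be misplaced. The strongest, 7624 bp from Cyp4a31 (chr4:115555458-115556003), had 81 and 119 tags in the Cpt2 knockouts and 53 and 77 in wild type, with no peak in the 4 Ppara-null libraries. A region 3807 bp from Cyp4a10 had 79 and 126 tags in the Cpt2 knockouts.

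Acyl-CoA synthesis, hydrolysis and fatty acid uptake followed, with 37 of 106 regions lost (34.9%), none gained, and 10 of 67 (14.9%) lost in equal-number lists. Acot1, a cytosolic acyl-CoA thioesterase, lost all 4 of its regions. Its promoter region (chr12:84009249-84009812) had 158 and 99 tags in the Cpt2 knockouts and 47 and 142 in wild type, and no peak in any Ppara-null library. The promoter region of Fabp1, the liver fatty acid binding protein (chr6:71199587-71200088), which holds the direct repeat printed above, had 119 and 100 tags in the Cpt2 knockouts. It had 43 and 132 tags in wild type and again no peak in the Ppara knockouts or double knockouts. Acsl1, the main long-chain acyl-CoA synthetase of liver, had 6 lost regions of 18, among them 1 at its promoter and 1 lying 66448 bp away (chr8:46404114-46404589, 89 and 107 tags). Cd36, a fatty acid translocase, had a lost region with 60 and 112 tags in the Cpt2 knockouts and 28 tags in 1 wild type library alone.

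**Figure D3:**
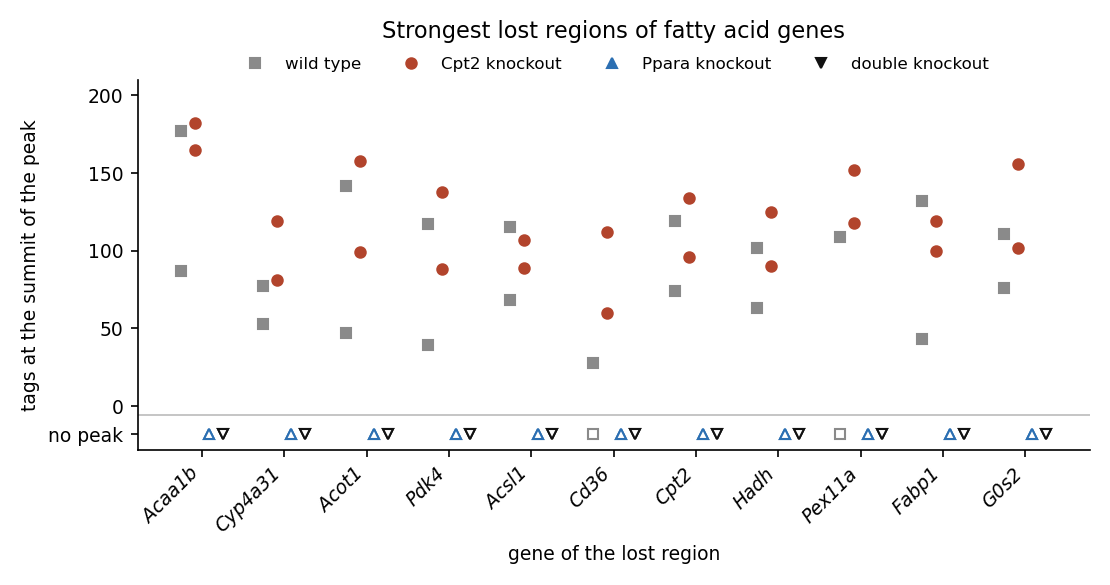
Summit pileup in tags (y axis) of a lost region of 11 fatty acid genes (x axis) in each of the 8 libraries, with open symbols in the lower band for libraries without a peak. The region shown is the strongest lost one, and for Fabp1 the promoter region. The 11 genes were picked from the lists without a fixed rule. None of these regions has a peak in the 2 double knockouts, which the definition of lost fixes, or in the 2 Ppara knockouts. The lost promoter region of Ech1, called in 1 Ppara knockout, is not shown.

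Peroxisomal oxidation had 29 of 104 regions lost (27.9%) and 9 of 66 in equal-number lists (13.6%). Acaa1b, a peroxisomal thiolase that ends each round of the pathway, lost all 3 of its regions. Its promoter region (chr9:119156848-119157351) had 182 and 165 tags in the Cpt2 knockouts, and 87 and 177 in wild type. Pex11a, which drives peroxisome division, had a lost region with 118 and 152 tags, and the promoter region of Ech1, a dienoyl-CoA isomerase, was lost at 131 and 130 tags. The Ech1 region was called in both wild type libraries and also in 1 Ppara knockout. Mitochondrial oxidation and the carnitine shuttle had 18 of 79 regions lost (22.8%), close to the 22.3% of all regions, and 1 gained at Eci2. In equal-number lists 5 of its 46 regions were lost (10.9%, against 5.73% of all regions). Its strongest lost region lay 19104 bp from Slc22a5, the carnitine importer, with 122 and 180 tags. Hadh, a short-chain dehydrogenase of the same pathway, had a lost region with 125 and 90 tags.

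Ketone body genes had 16 of 58 regions lost (27.6%), and 14.7% in equal-number lists. The strongest lay inside Slc16a7, a monocarboxylate transporter (chr10:125265947-125266325), with 83 and 86 tags in the Cpt2 knockouts, and 3 of the 13 regions of this gene were lost. Fasting signals had 38 of 118 regions lost (32.2%), and 7.2% in equal-number lists. Pdk4, which shuts off glucose oxidation, had a lost region 12955 bp away (chr6:5509233-5510158), with 88 and 138 tags in the Cpt2 knockouts and 39 and 117 in wild type. Fgf21, a fasting hormone of liver, had 3 lost of 5 regions, the strongest with 55 and 60 tags, and none was lost in equal-number lists.

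**Figure D4:**
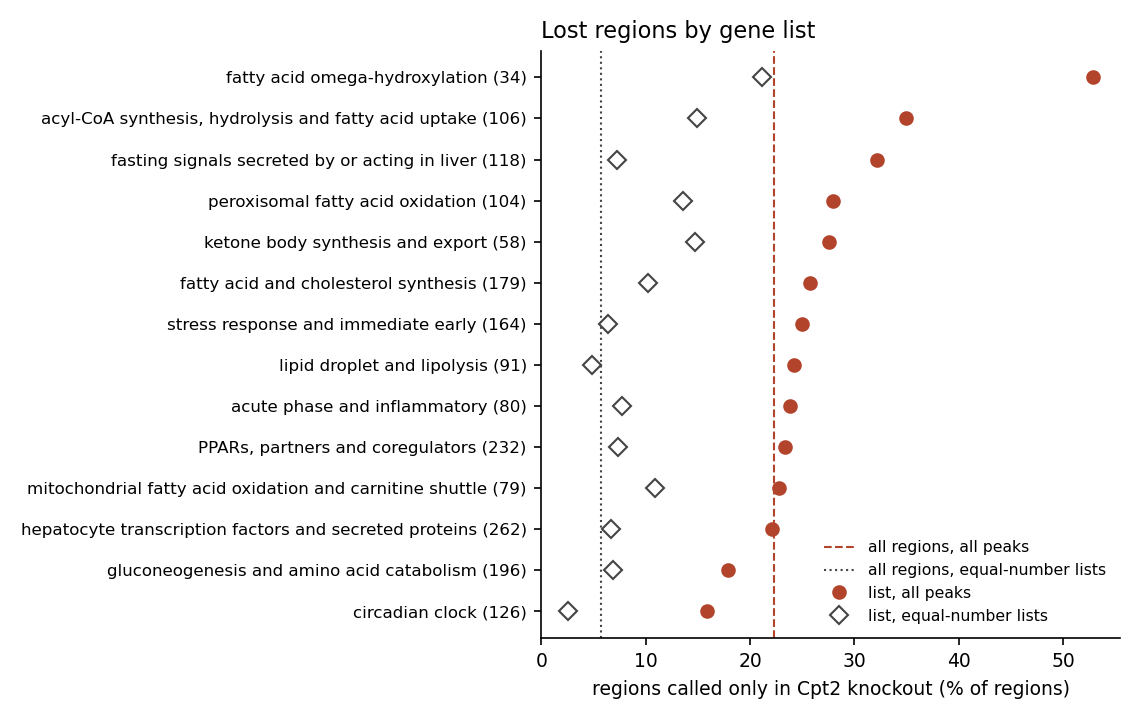
Share of regions lost (x axis, percent of the regions called in at least 1 of the 4 libraries) for 14 gene lists, with the number of regions in parentheses. Filled circles are all peaks and open diamonds equal-number lists; the dashed and dotted lines mark the same shares over all regions, 22.3% and 5.73%, and omega-hydroxylation lies farthest to the right of both at 52.9% and 21.1%.

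The remaining 8 lists ran from below to above the background. Stress and immediate early genes had 41 of 164 regions lost. Lost shares were 25.7% for fatty acid and cholesterol synthesis, 24.2% for lipid droplet genes, 23.8% for acute phase genes and 23.3% for PPARs and their partners. Hepatocyte transcription factors and secreted proteins had 22.1%, gluconeogenesis and amino acid catabolism 17.9% and clock genes 15.9%. In equal-number lists these 8 ran from 2.5% for the clock to 10.2% for lipid synthesis. Strong lost regions within them lay 72879 bp from Irs2, an adaptor of the insulin receptor (164 and 140 tags), 124414 bp from Glul, glutamine synthetase (116 and 118 tags), and inside Elovl3, a fatty acid elongase (178 and 105 tags). Nr1i3, the nuclear receptor CAR, had a lost region 681 bp away with 113 and 126 tags. With all peaks, where 0.653% of all regions were gained, gained regions of list members numbered 7, at Esrra, Igfbp1, Sqle, Eci2, Foxo1, Cps1 and Serpina1a. Equal-number lists, where 4.99% of all regions were gained, gave more of them. There PPARs and their partners had 11 gained and 11 lost of 150 regions, hepatocyte factors 10 and 11 of 163, lipid droplet genes 3 and 3 of 62, and clock genes 5 and 2 of 80. The fatty acid lists had 0 gained of 19 regions for omega-hydroxylation, 1 of 67 for acyl-CoA and uptake, 2 of 66 for peroxisomal and 3 of 46 for mitochondrial oxidation. Ketone body genes had 2 gained of 34 and fasting signals 1 of 69. Gluconeogenesis and stress genes had 6 gained each, lipid synthesis genes 3 and acute phase genes 2.

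Marker genes of liver cell types were read in the same way. Of 87 regions of 10 hepatocyte markers, 72 and 69 were called in the Cpt2 knockouts and 49 and 46 in the double knockouts. Of these 87, 14 (16.1%) were lost, against 22.3% of all regions. In equal-number lists 3 of 58 were lost and 5 gained, where 5.73% and 4.99% of all regions were lost and gained. Alb, which encodes the main plasma protein made by hepatocytes, had 7 shared regions of 11. Of 54 endothelial marker regions 43 and 37 were called in the Cpt2 knockouts and 12 in each double knockout, and 18 (33.3%) were lost. In equal-number lists none of 15 was lost and 2 were gained. Cholangiocyte markers had 12 of 28 lost (42.9%), 2 of 10 in equal-number lists, and none gained in either count. Kupffer cell markers had only 4 regions in all, with none at Adgre1, Clec4f, Vsig4, Marco, Timd4, Cd163 and Lyz2. Stellate markers had 3 of 12 lost and lymphocyte markers 2 of 10. In whole liver a smaller share of a cell type and less open chromatin per cell cannot be told apart, and the part of cell composition in the lost regions was not tested.

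The direct repeat was then counted over promoters genome-wide. RefSeq windows of 300 bases (250 before to 50 after the start) were at hand for 17469 of 21887 protein-coding genes, and 1199 windows of 1086 genes lay at lost regions. With at most 2 mismatches on either strand, 2.84% of these 1199 windows held the direct repeat, 3.11% of 6780 at shared regions and 3.31% of all 21238. With at most 1 mismatch those values were 0.58%, 0.44% and 0.48%. The Nr1h4 promoter region stood at mean percentile 43.4 of the Cpt2 knockout lists and was not lost in equal-number lists. The Fabp1 promoter region stood at 64.9 and was lost there too. In the 111 windows lost also in equal-number lists 3 held the repeat with at most 2 mismatches (2.7%) and 2 with at most 1 (1.8%). In the 437 windows lost on both backgrounds 17 did with at most 2 (3.89%) and 5 with at most 1 (1.14%). The CRE, TGACGTCA, was in 3.92% of lost, 3.58% of shared and 2.24% of all windows, and in 7.21% of the 111. In lost, shared and all windows median GC content was 59.3%, 63.0% and 56.3%. The C/EBP letters (TTGCGCAA or TTGCAA) were in 6.01% of lost, 4.34% of shared and 5.88% of all windows. The forkhead letters (TGTTTAC or TGTTTGC) were in 6.67%, 5.62% and 7.41%, and the AP-1 letters (TGANTCA) in 4.5%, 4.19% and 6.99%. Motifs were searched on both strands, no spelling contains another, and a match is a run of letters, not a shown binding site. Distal regions, which make up most of the lost class, were not searched.

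Among the shared regions, rank changes were tested. The deposited −log10 p was ranked within each library over the 14656 shared regions, turned into a normal score, and compared by limma with Benjamini-Hochberg adjustment. At an adjusted p under 0.05, 15 regions ranked lower in double knockout (0.102%) and 92 ranked higher (0.628%). At an unadjusted p under 0.05 there were 1051 and 1242. The calls depended on single libraries, since none was made without Cpt2 knockout replicate 1 or without Cpt2 knockout replicate 2, while 224 lower and 293 higher were called without double knockout replicate 1, and 97 and 156 without double knockout replicate 2. No region was called in equal-number lists or with untransformed percentiles. Because only order is compared, a region called higher need not have gained tags.

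Igfbp1, a secreted binding protein of insulin-like growth factors that rises in fasting, had the second largest rank rise. Its region (chr11:7202580-7204215, 34 bp from the gene) had 48 and 121 summit tags in the Cpt2 knockouts and 222 and 230 in the double knockouts. The groups did not overlap, though the region was picked for its rank change in these same libraries. Tags were higher here while they were lower in 97.2% of shared regions. The score difference was 3.30 ± 0.447 (SE), with a limma adjusted p of 0.0268. Ppara knockouts had 104 and 81 tags there, and wild type had 40 in 1 library and no peak in the other. A second Igfbp1 region (chr11:7201692-7201957) was gained, with 112 and 138 tags in the double knockouts and no peak in the other 6 libraries.

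Further regions called higher lay mostly away from promoters. Of the 92, 1 touched a promoter window and 82 lay over 1 kb from gene ends, against 5447 and 7473 of the 14656 shared regions. Inpp5a, a phosphatase of inositol phosphates, had the largest rise, with 36 and 30 tags in the Cpt2 knockouts and 84 and 76 in the double knockouts (score difference 3.39 ± 0.377, limma adjusted p 0.0268). Others of the 8 largest rises were at Rad54l, Rps6kc1, Atrnl1, Msl2 and Ktn1, whose percentiles among shared regions were 0.4 to 22.9 in the Cpt2 knockouts and 61.4 to 98.8 in the double knockouts. Of the list members, Ahsg, Apoa1, Acsl1 and Igfbp1 had a region called higher. Ahsg, which encodes the plasma protein fetuin-A, had 126 and 142 tags in the Cpt2 knockouts and 271 and 228 in the double knockouts. At Acsl1 the tags were 80 and 75 against 109 and 55, so that its rank was higher while its tags overlapped between groups.

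Regions called lower were led by the shared promoter of Cyb5rl and Mrpl37, the latter a mitochondrial ribosomal protein gene (chr4:107066556-107067422). It had 168 and 112 tags in the Cpt2 knockouts and 24 and 29 in the double knockouts, and stood at percentiles 84.3 and 66.9 of the shared regions against 0.1 and 2.9. The score difference was -3.23 ± 0.473 (limma adjusted p 0.0268). In wild type it had 99 and 147 tags and in Ppara knockout 61 and 46. The next 7 lay at or nearest to Pomgnt2, Spata13, Bahcc1, 9530068E07Rik, Galnt2, Foxp4 and Angpt4. Of the 15 regions called lower 5 touched a promoter window, and none was nearest to a member of the gene lists.

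**Figure D5:**
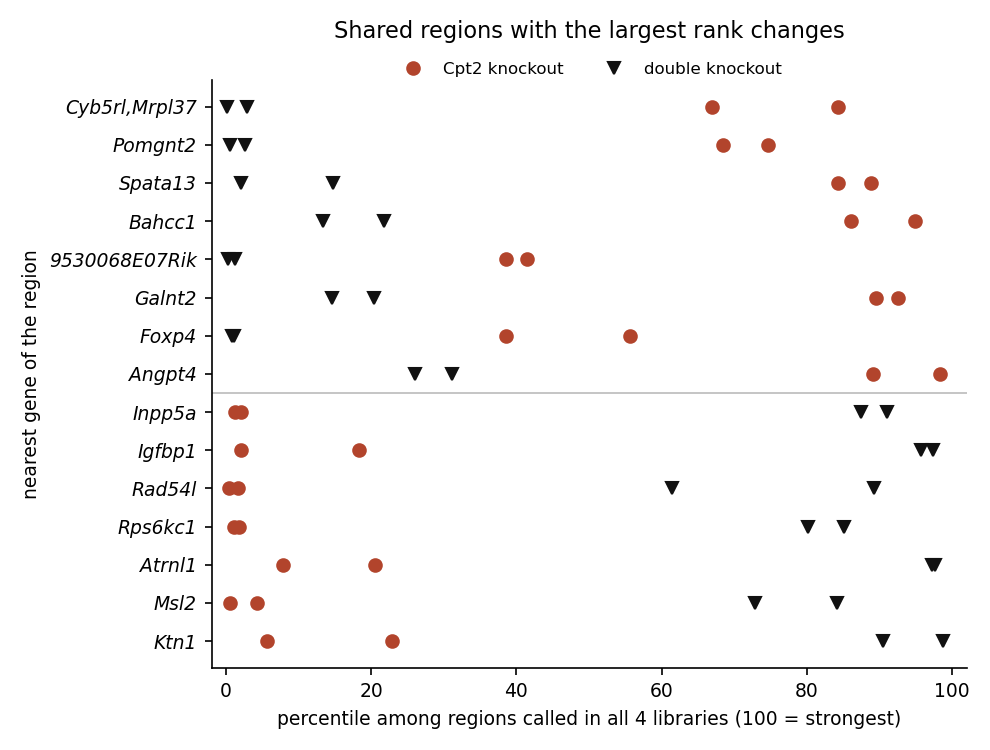
Percentile of the deposited −log10 p among the 14656 regions called in all 4 libraries (x axis, 100 the strongest) for the 8 regions with the largest fall (top) and 7 of the 8 with the largest rise (bottom) among those called by limma; each symbol is 1 library. The regions were picked for their rank change in these same libraries, so the lack of overlap between the 2 groups is not a separate result. Igfbp1 moves from 2.1 and 18.3 to 95.8 and 97.4.

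Rank changes on the Cpt2-null and Cpt2-intact backgrounds were set side by side over the 11258 regions called in all 8 libraries. Across these regions, which are not independent replicates, Pearson's r of the 2 changes was 0.422 and Spearman's rho 0.352, and 61.3% had the same sign. A given region has the same position and width in both comparisons. With 8 libraries in the fit, 95 regions were called higher on the Cpt2-null background, of which 93 had the same sign and 45 were also called higher in Ppara knockout against wild type. Of 23 called lower, 18 had the same sign and 2 were also called. Over all 11258 regions, 103 were called higher and 51 lower in Ppara knockout against wild type. The difference between the backgrounds, tested as an interaction in limma, gave 0 calls, with a lowest adjusted p of 0.479 and 909 regions at an unadjusted p under 0.05. For Ahsg the score rose by 2.52 on the Cpt2-null background and by 2.45 with Cpt2 intact, and the interaction was 0.07 with a limma adjusted p of 0.985. At the Cyb5rl and Mrpl37 promoter the changes were -3.17 and -0.29, and the interaction of -2.88 had a limma adjusted p of 0.479.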

How the data were processed

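Peak lists of 8 fasted mouse liver ATAC-seq libraries were used. BWA, MACS2 2.1.0 and the mm10 build are named in the submitters' processing notes. Duplicate handling and Tn5 offset are not given in the sources used here. Each list holds, as deposited, the authors' fold (a ratio to local background), −log10 p and −log10 q per peak. The deposited consensus table holds positions and no signal. Members, gene lists and naming rules (the strongest 10 lost and gained regions, 8 genes per direction, the strongest of each list, the 8 largest rank changes per direction, and the targeted genes) were chosen with earlier results of these data known.

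Summit pileup was solved from fold and −log10 p (tolerance 0.002) for 99.6% to 100.0% of peaks. The files give no library depth. Nearest genes and windows came from RefSeq GRCm38.p6, matched by symbol or synonym. Rank changes were fitted with limma 3.58.1 in R 4.3.3, checked on simulated data. Alternatives were equal-number lists, −log10 q of at least 20, 50% cover, fold ranks, untransformed percentiles, 8 libraries, a replicate block, leave-one-out, and, added after seeing the data, unranked log2 pileup. Python 3.11.15 did the rest. Some named regions are not reported here.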

Additional observations from a re-analysis of the deposited data

How the results depend on the processing

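Lost regions numbered 1485 in equal-number lists, 10222 at −log10 q of at least 20, and 12136 when peaks had to cover 50% of a region. Leaving out 1 library gave 11327 to 17092, the highest without Cpt2 knockout replicate 2. Gained regions numbered 1295 in equal-number lists and 95 at the stricter q, and 533 to 1423 with 1 library left out. Regions lost on both backgrounds numbered 402 in equal-number lists.

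Shared regions ranked lower and higher, 15 and 92 in limma, were 5 and 33 with fold, 0 and 0 with untransformed percentiles (unadjusted p under 0.05: 1069 and 1173), 0 and 0 in equal-number lists (675 and 737), 0 and 21 at the stricter q, and 23 and 95 in the fit of 8 libraries. Leaving out 1 library gave 0 to 224 lower and 0 to 293 higher, with the lone sample assumed to vary like the other group. With a replicate block they were 213 and 410. Same-numbered libraries deviated with r = -0.02 across regions. This shows no shared deviation, but with 2 libraries a group it cannot settle whether samples were paired. The block is given only as a setting. Unranked log2 pileup, chosen after seeing the data, gave 12021 lower and 57 higher. Of the 16 named shared regions, 10 stayed called with fold, 16 with the block and 0 with untransformed percentiles. Of those tested, 8 of 8 stayed called in the fit of 8 libraries, 2 of 2 at the stricter q and 0 of 4 in equal-number lists. All 16 kept their direction in every ranked setting that tested them, but these settings reuse the libraries by which the regions were picked. The causes were not tested. Separate lists of 2 libraries a group limit all of these counts, and no read depth was at hand.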
